A study of Homo sapiens with 8 samples.

Results

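The contrast described here, in human liver cancer cells, is the difference of the Flag-OGT change between the lines MHCC-97H and MHCC-97L. For each gene it is (97H Flag-OGT minus 97H) minus (97L Flag-OGT minus 97L), taken on log2(FPKM + 1) group means of 2 libraries. FPKM, fragments counted per kilobase of transcript and per unit of library size, is a level scaled for gene length and depth. The contrast used all 8 of the 8 RNA libraries of the series and 13553 of its 18928 listed features, those with a mean of at least 0.5 FPKM over the 8 libraries. No gene was chosen for its pattern by this rule.

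MHCC-97H and MHCC-97L (here 97H and 97L) are established hepatocellular carcinoma lines whose names mark high and low metastatic potential, and both were grown in DMEM with fetal calf serum. The 97H and 97L control libraries carry no genotype label, and the sources used here do not say whether those cells held an empty vector. Per these sources, the 97H Flag-OGT and 97L Flag-OGT libraries came from cells that stably expressed full-length wild-type human OGT with a C-terminal Flag tag. It was delivered in a lentiviral vector that also encodes luciferase, and cells were selected with neomycin. The sources do not say whether a transfected line was a clone or a pool. Chromatin immunoprecipitation in these cells was not analysed here.

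OGT, O-GlcNAc transferase, attaches single N-acetylglucosamine sugars to serines and threonines of nuclear and cytosolic proteins, and OGA removes them. OGT binds chromatin through partners such as HCFC1 and the TET proteins and modifies histone-modifying complexes and transcription factors. The study links it to ZNF263, a zinc-finger protein of the SCAN family that binds GA-rich DNA.

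The libraries of a group were close to each other, with Pearson r of 0.997 to 0.999 over log2(FPKM + 1), and the lines were close within a state, at 0.957 to 0.963 among controls and 0.959 among Flag-OGT libraries. Libraries of 1 line in the 2 states correlated at only 0.725 to 0.753. Markers of the labelled cell type and of others moved with the state: the summed FPKM of 10 hepatocyte markers was 48.6 to 156 in the controls and 1.17 to 4.96 in the Flag-OGT libraries, where 8 of the 10 stayed below 1 FPKM in every library and TTR was listed at 0. HNF4A, the liver's defining nuclear receptor, lay at 13.4 to 14.6 FPKM in the controls and at most at 0.04 FPKM with Flag-OGT. The epithelial keratin KRT8 fell from a range of 3735 to 4140 FPKM to one of 5.62 to 12 FPKM in the Flag-OGT libraries. CDH1, the epithelial cadherin, differed less between the states, with 1.52 to 2.93 FPKM without Flag-OGT against 0.70 to 2.03 FPKM. The summed levels of leukocyte markers (82.3 to 86.1 FPKM in controls, 4.09 to 10.0 FPKM with Flag-OGT), endothelial markers (33.8 to 47.3 and 1.56 to 3.25 FPKM) and neuronal markers (58.5 to 179 and 26.9 to 34.6 FPKM) were lower with Flag-OGT, and that of fibroblast markers (4.65 to 12.2 and 14.6 to 20.9 FPKM) was higher. Most of the neuronal sum in controls was TUBB3 alone, at 53.1 to 173 FPKM there and at most 11.7 FPKM with Flag-OGT. Of the 9 neuronal markers 7 stayed below 1 FPKM in every control library, but only 4 in every Flag-OGT library. Of the 9 fibroblast markers 8 stayed below 1 FPKM in every control library and 7 in every Flag-OGT library, so few genes carried that sum. The fibroblast marker LUM went the other way, from 4.0 to 11.5 FPKM in controls to at most 0.08 FPKM with Flag-OGT. The libraries labelled Flag-OGT thus lacked most of the defining markers of the labelled cell type. The part of this in the results below was not tested. Fewer cells of a type and less RNA per cell cannot be told apart in bulk RNA. Whether the Flag-OGT libraries came from the same cell lines as the controls, as labelled, was not tested either.

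OGT itself was higher with Flag-OGT in both lines, and by more in 97H. Its level was 32.5 and 34.2 FPKM in the 97H controls, 45.7 and 43.9 FPKM in the 97L controls, 59.0 and 58.4 FPKM in 97H Flag-OGT and 51.0 and 54.5 FPKM in 97L Flag-OGT. The control gap between the lines was -0.42 ± 0.06 (SE) and the Flag-OGT gap 0.15 ± 0.06 on the log2(FPKM + 1) scale, so the difference of 0.57 ± 0.08 (limma, Benjamini-Hochberg adjusted p = 1.9e-04) came mainly from the higher level in the 97L controls. The table does not separate the introduced OGT from the cell's own. OGA had a difference of -0.55 ± 0.11 (adjusted p = 1.9e-03). ZNF263, at 12.5 to 15.4 FPKM in all 8 libraries, had a difference of 0.20 ± 0.10 that did not pass the test (adjusted p = 0.107). HCFC1 rose in both lines, by 0.93 in 97H and 0.95 in 97L, with a difference of -0.01 ± 0.10 (adjusted p = 0.926) that changed sign under 6 of 17 alternatives.

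The contrast is also the line gap (97H minus 97L) in the Flag-OGT libraries minus the line gap in the controls, and these gaps share no library. A positive difference, called higher here, means that a gene's Flag-OGT level lay further above, or less far below, its control level in 97H than in 97L. Whether the introduced OGT made such changes was not tested. It passed the limma test in 8576 genes, 63.3% of those tested, of which 4597 (33.9%) were higher and 3979 (29.4%) lower. The control gap passed in 65.4% of genes and the Flag-OGT gap in 69.7%. With 2 libraries a group these tests measure only the spread between the libraries, which may be technical, since nothing states that they came from separate cultures. Counts were therefore also taken for an absolute difference of at least 1, which 1679 genes (12.4%) reached, 1231 (9.08%) higher and 448 (3.31%) lower. Higher genes made up 73.3% of these and 61.5% after quantile normalization. Just inside and outside that bound lay NAT8L and KIAA1586, whose absolute differences both round to 1.00.

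Across the 13553 genes the control gap and the Flag-OGT gap were only weakly alike, with Pearson r = 0.23 (a description across genes, which are not independent replicates). Their spreads were similar, with an SD over genes of 0.59 and 0.58. Gaps of at least 1 that passed the test were found in 1036 genes in controls and in 1061 genes with Flag-OGT, but only 90 genes had both with the same sign and 48 had both with opposite signs. Genes with an absolute difference of at least 1 were then sorted by the side it came from. On the control side were 684 genes (40.7%) whose control gap was at least 2 times their Flag-OGT gap, and on the Flag-OGT side 570 (33.9%) with the reverse. Another 424 (25.3%) had gaps of opposite sign and similar size, and the 1 remaining gene, LYL1, which was named after its values were seen, had unequal gaps of the same sign. Rescaling to a common sum put 640 genes on the control side and 700 on the Flag-OGT side, so the order of these classes depends on the scaling. The sorting is a description of the same values as the contrast and carries no test. The ratio bound of 2 fell between FOXD2 (2.01) and AIG1 (just under 2.00) on the control side.

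**Figure D1:**
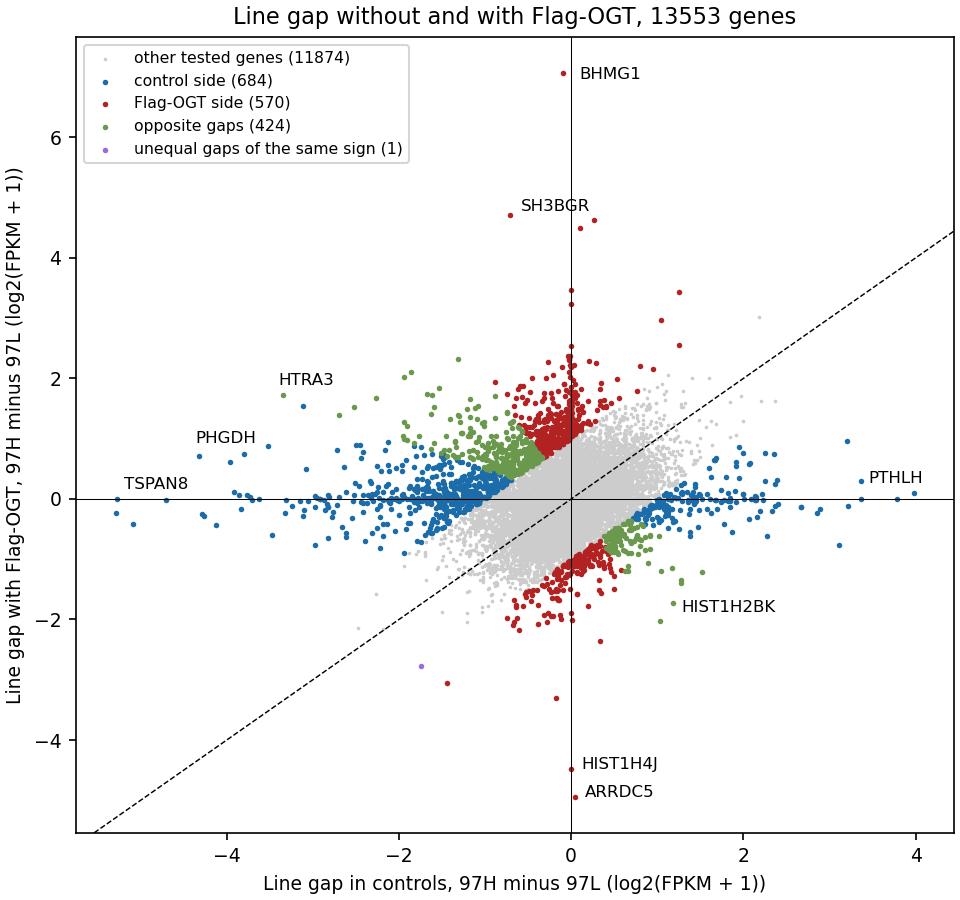
Each point is 1 of 13553 tested genes, with the line gap (97H minus 97L, log2(FPKM + 1)) in controls on the x axis and with Flag-OGT on the y axis; colours mark the genes with an absolute difference of at least 1 by side, and the dashed line marks equal gaps. The 684 control-side genes lie along the horizontal axis and the 570 Flag-OGT-side genes along the vertical one, with few large gaps on the diagonal.

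In both one-sided classes many genes were near silent in the other state. Of the control-side genes 267 (39.0%) stayed below 1 FPKM in all 4 Flag-OGT libraries, against 8.43% of all tested genes. Of the Flag-OGT-side genes 227 (39.8%) stayed below 1 FPKM in all 4 controls, against 12.3% of all tested genes. A gene near 0 in one state can have no large gap there, so these shares follow in part from the sorting. Among the 10343 genes with a mean of at least 1 FPKM in each state, an alternative chosen after seeing the data, 384 were on the control side, 328 on the Flag-OGT side and 341 had opposite gaps.

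On the control side 511 genes were higher, which means that the 97L controls exceeded the 97H controls, and 173 lower. With Flag-OGT, 366 of the 511 fell in 97L, while in 97H 237 of them rose and 216 fell. TSPAN8, a tetraspanin surface protein, was at 0.90 and 1.04 FPKM in the 97H controls and at 80.9 and 69.4 FPKM in the 97L controls, and was listed at 0 in all 4 Flag-OGT libraries. Its difference of 5.27 ± 0.12 (adjusted p = 4.5e-09) is thus its control gap alone. CST1, a secreted cystatin that inhibits cysteine proteases, followed the same course, with 0.07 and 0.33 FPKM in the 97H controls, 45.0 and 46.0 FPKM in the 97L controls and at most 0.22 FPKM in any Flag-OGT library. ADH1C, an alcohol dehydrogenase of the liver, fell from 65.6 and 67.6 FPKM in the 97L controls to at most 0.03 FPKM with Flag-OGT in either line, while the 97H controls were at 1.74 and 1.42 FPKM. The surface glycoprotein gene CD24 had 85.3 and 84.0 FPKM in the 97L controls and 1.36 to 2.48 FPKM in the other 6 libraries. In these 4 genes the 97L controls stood alone.

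PHGDH and ASS1 reached the same side by the opposite course, because the 97H controls were the low group and both lines rose with Flag-OGT. PHGDH, the first enzyme of serine synthesis, was at 0.98 and 1.06 FPKM in the 97H controls, 38.6 and 40.4 FPKM in the 97L controls, 651 and 645 FPKM in 97H Flag-OGT and 406 and 380 FPKM in 97L Flag-OGT. The rise was 8.33 in 97H and 3.28 in 97L on the log2 scale, a difference of 5.05 ± 0.08 (adjusted p = 4.3e-10), and the remaining Flag-OGT gap was 0.72. ASS1, the urea cycle enzyme that joins citrulline and aspartate, rose from 1.38 and 1.26 FPKM to 185 and 184 FPKM in 97H and from 18.3 and 19.8 FPKM to 62.2 and 64.0 FPKM in 97L, a difference of 4.65 ± 0.08 (adjusted p = 1.4e-09). ADAMTS10, a secreted metalloprotease, moved in opposite directions, up in 97H from 0.21 and 0.27 FPKM to 2.77 and 2.50 FPKM and down in 97L from 17.4 and 19.3 FPKM to 1.42 and 1.31 FPKM.

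In the 173 lower genes of the control side the 97H controls exceeded the 97L controls. With Flag-OGT, 152 of them fell in 97H and 51 rose in 97L. PTHLH, parathyroid hormone-like hormone, was at 21.6 and 21.8 FPKM in the 97H controls and at 0.33 to 0.55 FPKM in the other 6 libraries, a difference of -3.88 ± 0.13 (adjusted p = 2.4e-08). SLC38A5, a transporter of glutamine and other neutral amino acids, had 28.4 and 29.7 FPKM in the 97H controls, 2.38 and 2.13 FPKM in the 97L controls and at most 0.42 FPKM with Flag-OGT. ANKRD1, a target of the Hippo pathway's YAP, had 12.9 and 13.4 FPKM in the 97H controls, 1.19 and 0.74 FPKM in the 97L controls and at most 0.40 FPKM with Flag-OGT. DNAJC12, a cochaperone of aromatic amino acid hydroxylases, was instead low in 1 group only, the 97L controls (1.32 and 1.28 FPKM), and lay at 10.5 to 21.7 FPKM in the other 6 libraries.

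The Flag-OGT side held 397 higher and 173 lower genes. Of the higher genes 333 rose with Flag-OGT in 97H and 247 in 97L, so for many the rise was shared and unequal rather than present in 1 line. The largest difference of all tested genes was that of BHMG1, which encodes a protein with a helix-loop-helix and an HMG-box domain. BHMG1 was at 181 and 180 FPKM in 97H Flag-OGT, 0.35 and 0.36 FPKM in 97L Flag-OGT and 0.02 to 0.12 FPKM in the controls, a difference of 7.17 ± 0.09 (adjusted p = 1.5e-10). SH3BGR, which encodes a small SH3-domain-binding protein, was at 76.5 and 76.0 FPKM in 97H Flag-OGT and at 0.55 to 1.99 FPKM in the other 6 libraries, a difference of 5.42 ± 0.12. The secreted metalloprotease ADAMTS1 reached 98.6 and 99.9 FPKM in 97H Flag-OGT, against 3.47 and 3.46 FPKM in 97L Flag-OGT and 0.61 to 0.76 FPKM in the controls. RIPK4, a kinase of keratinocyte differentiation, rose in 97H from 6.99 and 6.23 FPKM to 62.1 and 61.1 FPKM and fell in 97L from 5.44 and 5.16 FPKM to 1.34 and 1.72 FPKM. SLC7A3, a cationic amino acid transporter, was listed at 9.77 and 10.2 FPKM in 97H Flag-OGT and at 0 in the other 6 libraries, and UGT2A1, a glucuronosyltransferase, at 8.97 and 8.89 FPKM against at most 0.08 FPKM. In each of these genes 97H Flag-OGT exceeded every other library.

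SH3BGR, ADAMTS1 and RIPK4 all lie on chromosome 21, though not side by side. The Flag-OGT gap of the nearest tested gene on either side was -0.26 and 0.03 for SH3BGR (WRB and B3GALT5), 0.92 and 0.34 for ADAMTS1 (APP and N6AMT1) and 0.03 and -0.25 for RIPK4 (TMPRSS2 and PRDM15). None of these neighbours, named for their place alone, had a Flag-OGT gap near those of the 3 genes, which were 4.71, 4.49 and 4.63. TMPRSS2 did have a difference of 2.36, which came from a control gap of -2.33. Of 131 tested genes of chromosome 21, 10.7% were higher by at least 1, near the 9.08% of all tested genes.

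Lower genes of the Flag-OGT side were those in which 97L Flag-OGT stood above 97H Flag-OGT, and 128 of the 173 rose in 97L. ARRDC5, an arrestin-domain gene, was at 34.9 and 35 FPKM in 97L Flag-OGT and at 0.07 to 0.28 FPKM in the other 6 libraries, a difference of -4.98 ± 0.14 (adjusted p = 1.0e-08). PIK3C2G, a class II phosphoinositide 3-kinase, was at 13.7 and 15.0 FPKM there, 0.60 and 0.51 FPKM in 97H Flag-OGT and at most 0.17 FPKM in the controls. CABP5, a calcium-binding protein, reached 4.34 and 3.05 FPKM in 97L Flag-OGT and at most 0.22 FPKM elsewhere, and its difference of -2.02 became -3.98 with a pseudocount of 0.1. The other 3 genes named by the rule, HIST1H4J, HIST1H1C and HIST1H2AM, are histone genes and are described with their family.

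In the 424 genes with opposite gaps the order of the lines was exchanged. In 323 of them 97L was above 97H in the controls and below it with Flag-OGT, and in 101 the reverse held. HTRA3, a secreted serine protease, went from 0.43 and 0.26 FPKM to 3.93 and 4.51 FPKM in 97H and from 12.7 and 12.6 FPKM to 0.64 and 0.53 FPKM in 97L, a difference of 5.06 ± 0.12 (adjusted p = 6.5e-09). NKX2-2, a homeobox factor of neural and pancreatic development, rose in 97H from 0.41 and 0.36 FPKM to 3.84 and 4.15 FPKM and fell in 97L from 7.45 and 8.56 FPKM to 0.87 and 0.95 FPKM. SYT17, of the synaptotagmin family, had the same shape, as did MMP2, a gelatin-degrading matrix protease, which rose from 0.63 and 0.59 FPKM to 6.74 and 6.07 FPKM in 97H and fell from 6.54 and 6.96 FPKM to 1.5 and 1.17 FPKM in 97L. RAMP1, a calcitonin receptor-associated protein, had less steep changes, a rise of 0.95 in 97H and a change of -3.02 in 97L.

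Opposite gaps also arose where both lines moved the same way by unequal amounts. TUBB3, a beta-tubulin typical of neurons, fell from 173 and 146 FPKM to 3.77 and 4.58 FPKM in 97H and from 53.1 and 56.3 FPKM to 11.7 and 10.3 FPKM in 97L, a difference of -2.73 ± 0.14. DDIT4, a stress-induced inhibitor of mTORC1, rose in 97H from 5.50 and 4.94 FPKM to 87.0 and 84.3 FPKM and in 97L only from 14.9 and 14.2 FPKM to 16.3 and 16.5 FPKM. RENBP, an N-acetylglucosamine epimerase also known as renin-binding protein, fell from 16.3 and 14.6 FPKM to 1.02 and 1.43 FPKM in 97H, while its change in 97L, -0.23, did not pass the test (adjusted p = 0.0571). SERF1A, at 2.11 and 6.58 FPKM in the 97H controls, has a near-identical copy and its value is uncertain. A Flag-OGT change that passed the test in both lines in opposite directions, together with an absolute difference of at least 1, was found in 363 genes (2.68%), 122 of them on the control side, 114 on the Flag-OGT side and 127 with opposite gaps. In comparison, 9133 genes passed in both lines in the same direction and 894 in opposite directions at any size of the difference.

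**Figure D2:**
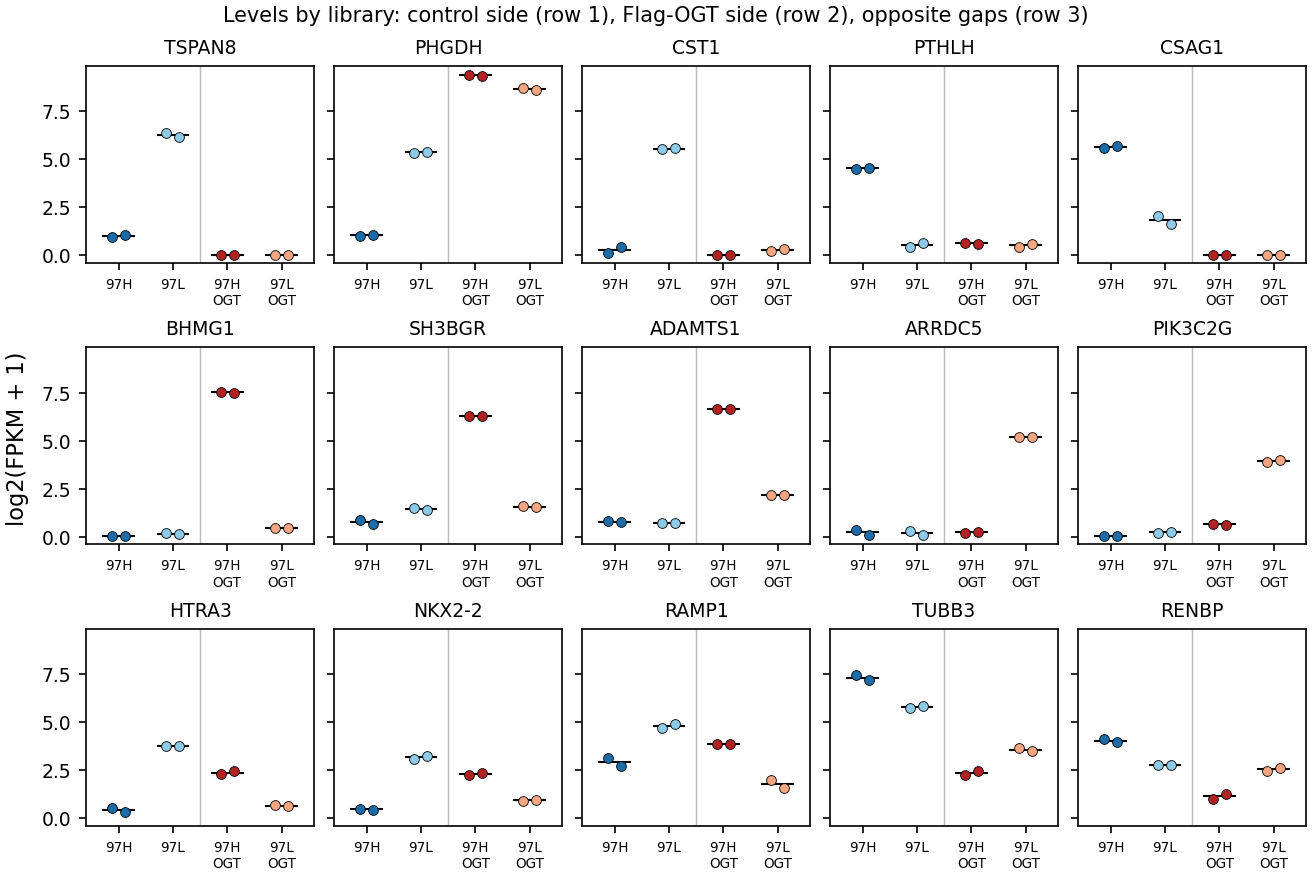
Each panel shows 1 gene, with log2(FPKM + 1) on the y axis, 1 point per library and a bar at the mean of the 2 libraries of each group; a vertical line separates controls from Flag-OGT. Row 1 differs between lines in controls, row 2 in Flag-OGT libraries only or mostly, and in row 3 the order of the lines is exchanged.

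Gene groups differed in the side that carried their differences. The lists are descriptions, with no test of a list. Of 38 secreted hepatocyte proteins 22 were tested: 15 were higher by at least 1, 0 lower, and all 15 lay on the control side. Of all tested genes 9.08% were higher and 3.31% lower by at least 1. For the secreted proteins the medians also differed between the states. Their median control gap was -1.57 and their median Flag-OGT gap -0.07, against -0.07 and -0.02 over all tested genes. The median control gap was -0.71 with no filter on low FPKM and -2.34 with a pseudocount of 0.1. A secreted protein gene low in the other groups passed the filter through the 97L controls, which fixed its side in advance. The counts, the sides and the medians therefore describe the tested members only. SERPINA1, which encodes alpha-1-antitrypsin, was at 0.46 and 0.52 FPKM in the 97H controls, 27.5 and 28.2 FPKM in the 97L controls and at most 0.64 FPKM with Flag-OGT. RBP4, the plasma carrier of retinol, and APOE, an apolipoprotein, had 32.9 and 30.8 FPKM and 32.7 and 34.4 FPKM in the 97L controls and at most 1.45 FPKM and 2.55 FPKM elsewhere. TF, transferrin, and ALB, albumin, followed with differences of 3.67 ± 0.11 and 2.29 ± 0.10. The 97L controls were the high group in all 5 genes. ALB, TF and SERPINA1 are also among the 10 hepatocyte markers whose summed level was low in the Flag-OGT libraries of both lines.

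Of 22 hepatocyte transcription factors 17 were tested. Of these 5 were higher by at least 1 and 1 lower, all on the control side, where 9.08% and 3.31% of all tested genes were higher and lower. NR1H4 and NR1I2, at most at 0.30 and 0.07 FPKM outside the 97L controls, passed the filter through those libraries, so their side was fixed in advance. The other 11 did not reach 1, among them HNF4A, which was alike in the controls of both lines. NR1H4, the bile acid receptor FXR, was at 0.26 and 0.30 FPKM in the 97H controls, 9.23 and 8.92 FPKM in the 97L controls and at most 0.17 FPKM with Flag-OGT, a difference of 2.84 ± 0.09 (adjusted p = 2.5e-08). CREB3L3, a liver factor of fasting metabolism, was high in both controls (20.3 and 17.5 FPKM in 97H, 57.6 and 62.2 FPKM in 97L) and at most at 0.14 FPKM with Flag-OGT. Against the same background, of 28 tested phase II conjugating enzymes (40 listed) 8 were higher by at least 1 and 0 lower, 6 of them on the control side. UGT1A6, a glucuronosyltransferase that shares exons with other UGT1A genes, went from 14.1 and 15.7 FPKM in 97H and 122 FPKM in both 97L controls to at most 0.09 FPKM. Near 0 with Flag-OGT, CREB3L3 and UGT1A6 passed the filter through the controls, so they too could lie on no other side. Among 25 tested cytochromes P450 (41 listed), 5 were higher and 0 lower, on the same background of 9.08% and 3.31%. A member near 0 outside the 97L controls, such as CYP2B6, passed the filter through them, which fixes its side. CYP2B6, a drug-metabolizing enzyme, had 28.0 and 27.0 FPKM in the 97L controls and at most 0.53 FPKM elsewhere, and CYP24A1, which inactivates vitamin D, had 55.1 and 55.0 FPKM there, 3.32 and 2.94 FPKM in the 97H controls and at most 0.09 FPKM with Flag-OGT.

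Cancer-testis antigens, germline genes that tumours reactivate, were tested for 12 of 44 with values. By at least 1, 7 were higher and 2 lower, where 9.08% and 3.31% of all tested genes were, and 7 of these 9 lay on the control side. A member at 0 with Flag-OGT passed the filter through the controls alone and could lie on no other side. This holds for the 3 genes below. The list's median difference of 1.25 lay between 0.04 and 2.02 over the alternatives. CSAG1 was at 47.2 and 49.2 FPKM in the 97H controls, 3.08 and 2.11 FPKM in the 97L controls and listed at 0 with Flag-OGT. MAGEA12 was at 14.3 and 13.9 FPKM, 0.52 and 0.41 FPKM and 0 in the same order. GAGE2A had the opposite order, with 2.21 and 2.97 FPKM in the 97H controls, 26.4 and 25.8 FPKM in the 97L controls and 0 with Flag-OGT. CSAG1 and MAGEA12 are adjacent among tested genes of chromosome X, and the next tested genes, MAGEA2B and CSAG3, had control gaps of the opposite sign, -2.19 and -1.43. These genes have near-identical copies between which reads may be split, so their single values are uncertain.

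In several signalling and matrix lists the median line gap of the tested members was near 0 in the controls and positive with Flag-OGT. A member near 0 in the controls, such as COL4A6, passed the filter through the Flag-OGT libraries. That fixed in advance both its control gap near 0 and its side. The counts of genes higher and lower by at least 1 in these lists stand against 9.08% and 3.31% of all tested genes. Of 32 tested growth factor receptor and IGF pathway genes 11 were higher by at least 1 and 1 lower, with a median control gap of -0.03 and a median Flag-OGT gap of 0.54. Of 51 axon guidance genes 14 were higher and 2 lower, with medians of -0.17 and 0.43. Of 36 Wnt pathway genes 7 were higher and 1 lower (-0.08 and 0.48), of 25 Notch pathway genes 5 were higher and 0 lower (-0.08 and 0.36), and of 26 hypoxia-response genes 4 were higher and 0 lower (-0.07 and 0.59). Of 21 collagens 8 were higher and 1 lower, with medians of -0.12 and 0.49. The members past 1 did not share 1 side: among the growth factor and IGF genes 5 were on the control side, 3 on the Flag-OGT side and 4 had opposite gaps, and among the collagens the numbers were 2, 5 and 2. With no filter on low FPKM the median Flag-OGT gap was 0.04 for the Notch genes, 0.05 for the collagens, 0.27 for the Wnt genes and 0.29 for the growth factor and IGF genes. The median difference of these 6 lists stayed positive in every alternative in which lists were counted, with 0.10 for the collagens as the lowest.

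NOTCH3, a Notch receptor, rose from 0.04 to 0.27 FPKM in the controls to 22 and 22.1 FPKM in 97H Flag-OGT and 6.01 and 5.59 FPKM in 97L Flag-OGT, a difference of 2.00 ± 0.10 that became 3.07 with a pseudocount of 0.1. UNC5B, a netrin receptor, rose from at most 0.42 FPKM to 25.6 and 24.9 FPKM in 97H and 9.81 and 9.60 FPKM in 97L. COL4A6, a basement membrane collagen, was at 9.47 and 9.15 FPKM in 97H Flag-OGT, 1.71 and 1.76 FPKM in 97L Flag-OGT and at most 0.04 FPKM in the controls. GPC3, a glypican known as an oncofetal liver cancer antigen, was listed at 0 in all 4 controls, at 28.9 and 29.7 FPKM in 97H Flag-OGT and at 4.0 and 4.43 FPKM in 97L Flag-OGT. In these 4 genes both lines rose and 97H rose further.

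IGF-binding proteins differed in their courses. IGFBP3 was at 24.5 and 25.3 FPKM in the 97L controls, 0.93 and 0.98 FPKM in the 97H controls and at most 0.06 FPKM with Flag-OGT, a control-side difference of 3.77 ± 0.09. IGFBP5 rose to 9.21 and 9.36 FPKM in 97H Flag-OGT from 0.03 and 0.02 FPKM, and was at 2.17 to 2.90 FPKM in all 97L libraries; its difference of 3.05 became 5.85 with a pseudocount of 0.1. IGFBP2 rose in 97H from 54.5 and 46.6 FPKM to 131 and 129 FPKM and fell in 97L from 260 and 291 FPKM to 136 FPKM in both libraries, so that the lines met.

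**Figure D3:**
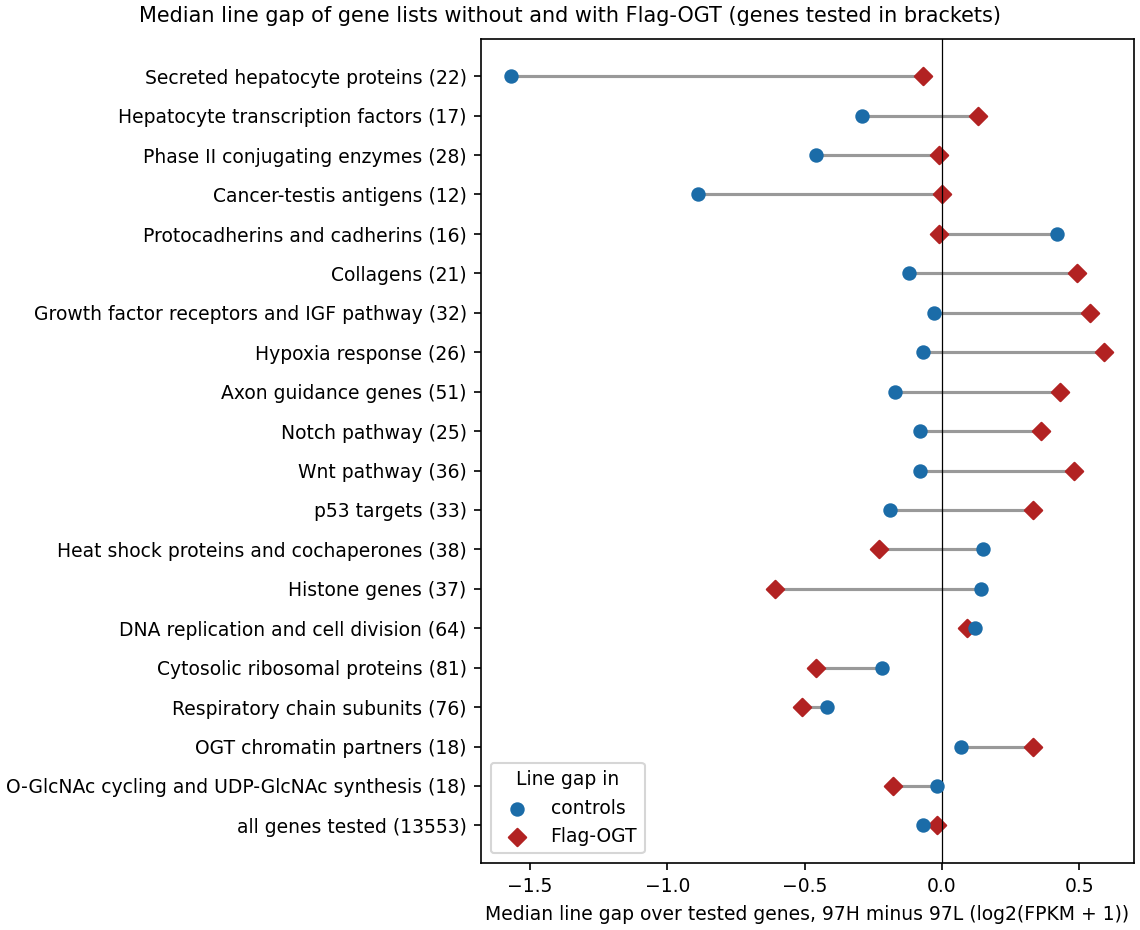
For 19 gene lists and all tested genes, the median line gap (97H minus 97L, log2(FPKM + 1)) is shown in controls (circles) and with Flag-OGT (diamonds), with the number of tested genes in brackets. Secreted hepatocyte proteins had a control median of -1.57 that was near 0 with Flag-OGT, while histone genes had a Flag-OGT median of -0.61 and a control median of 0.14.

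Histone genes ran against the general direction. Of 37 tested members 15 were lower by at least 1 and 2 higher, where 3.31% and 9.08% of all genes were, and 11 of these 17 were on the Flag-OGT side. Their median difference was -0.77, between -1.25 and -0.31 over the alternatives. HIST1H4J, an H4 gene, was listed at 21.2 and 21.5 FPKM in 97L Flag-OGT and at 0 in the other 6 libraries, a difference of -4.48 that became -7.74 with a pseudocount of 0.1. HIST1H2BK, an H2B gene, was at 132 and 146 FPKM in the 97H controls and 62.5 and 62.3 FPKM in 97H Flag-OGT, and rose in 97L from 61.4 and 59.8 FPKM to 207 and 212 FPKM, a difference of -2.91 ± 0.08 (adjusted p = 1.0e-08). HIST1H1C, a linker histone H1 gene, was at 60.7 to 78.4 FPKM in 6 libraries and at 10.8 and 13.5 FPKM in 97H Flag-OGT alone, a difference of -2.69 ± 0.12. The 2 higher genes, HIST1H4K and H1F0, were chosen for naming after their values were seen, and H1F0 encodes a linker histone that does not depend on replication. Histone genes have near-identical copies, so single values are uncertain.

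Most of these genes make the replication-dependent histone messages, which end in a stem-loop and mostly lack a poly(A) tail. The promoters of some of these genes are known for an octamer bound by OCT1 and for CCAAT boxes. The first start in RefSeq's promoter table (GRCh38.p14, 250 bases before to 50 after the start) was searched on both strands for the octamer ATTTGCAT and for CCAAT. The octamer stood in 11 of 32 matched genes with a HIST name (34.4%), in 1.37% of matched tested genes and in 1.80% of all 27305 promoters. CCAAT stood in 78.1%, 36.5% and 35.7%. The 3 lower histone genes with the largest differences and an octamer are shown for comparison, 5′ to 3′ on the gene's strand, with both motifs in capitals on either strand: HIST1H2BK (chr6:27146809-27147108, minus strand), HIST1H2AM (chr6:27893136-27893435, minus strand) and HIST1H2AC (chr6:26123922-26124221, plus strand).
HIST1H2BK: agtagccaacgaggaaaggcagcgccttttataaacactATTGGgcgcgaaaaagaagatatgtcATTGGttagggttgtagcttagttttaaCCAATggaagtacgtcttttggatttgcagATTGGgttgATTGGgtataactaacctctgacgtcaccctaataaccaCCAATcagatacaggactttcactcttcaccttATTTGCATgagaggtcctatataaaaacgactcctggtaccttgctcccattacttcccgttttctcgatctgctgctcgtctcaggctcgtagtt
HIST1H2AM: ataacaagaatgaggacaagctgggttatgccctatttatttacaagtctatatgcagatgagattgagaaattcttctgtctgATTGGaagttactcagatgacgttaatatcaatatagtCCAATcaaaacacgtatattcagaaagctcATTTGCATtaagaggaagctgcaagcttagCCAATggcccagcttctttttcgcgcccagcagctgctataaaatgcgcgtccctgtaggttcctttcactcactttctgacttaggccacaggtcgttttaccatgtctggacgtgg
HIST1H2AC: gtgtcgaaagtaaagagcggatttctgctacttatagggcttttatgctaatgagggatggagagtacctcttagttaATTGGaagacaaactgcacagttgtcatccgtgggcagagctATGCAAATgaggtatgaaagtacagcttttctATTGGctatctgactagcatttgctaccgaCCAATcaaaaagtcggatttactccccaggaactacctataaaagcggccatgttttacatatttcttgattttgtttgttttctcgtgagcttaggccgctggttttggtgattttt
Each holds 1 octamer within the stretch before the start, and a match is a description of letters, not a binding site. These 3 genes did not share a side: HIST1H2BK had opposite gaps, HIST1H2AM (5.64 and 6.27 FPKM in 97L Flag-OGT, 0.38 to 1.81 FPKM elsewhere) was on the Flag-OGT side, and HIST1H2AC (13.6 and 12.3 FPKM in the 97H controls, 4.27 and 4.43 FPKM in the 97L controls, 1.47 to 3.47 FPKM with Flag-OGT) on the control side.

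Genes of DNA replication and cell division had smaller differences, with a median of -0.11 against -0.77 in histone genes. Of 64 tested 3 (4.69%, near the 3.31% of all tested genes) were lower by at least 1. None was higher, where 9.08% of all tested genes were. The list's medians were 0.12 for the control gap and 0.09 for the Flag-OGT gap. The 3 were CDK1, the mitotic kinase, at 36.3 and 39.6 FPKM in the 97H controls, 28.8 and 26.8 FPKM in the 97L controls, 25.9 and 23.2 FPKM in 97H Flag-OGT and 38.2 and 40.9 FPKM in 97L Flag-OGT, and the replication factors GINS2 and CDC6, with differences of -1.08 ± 0.09 and -1.04 ± 0.10. Of 38 heat shock proteins and cochaperones 8 were lower and 4 higher by at least 1, where 3.31% and 9.08% of all tested genes were. HSP90AA1, the inducible HSP90, fell in 97H from 194 and 214 FPKM to 104 and 106 FPKM and rose in 97L from 256 and 241 FPKM to 418 and 455 FPKM, a difference of -1.76 ± 0.09 (adjusted p = 3.1e-07). Of 81 cytosolic ribosomal protein genes 2 (2.47%, near the 3.31% of all tested genes) were lower by at least 1, RPS24 and RPL22. The median difference of the ribosomal list, -0.21, rounded to 0 after quantile normalization.

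**Figure D4:**
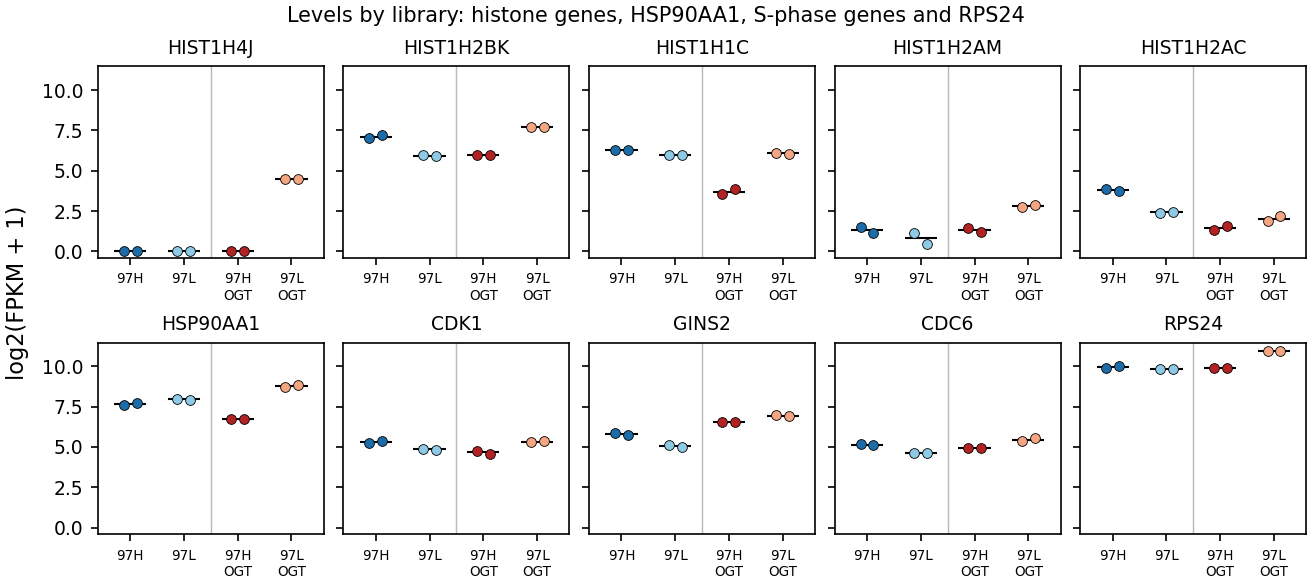
Each panel shows 1 gene with log2(FPKM + 1) on the y axis, 1 point per library and a bar at the group mean of 2 libraries. HIST1H4J stands above 0 in 97L Flag-OGT alone, HIST1H1C is low in 97H Flag-OGT alone, and in the panels for CDK1 and CDC6 the groups lie close together.

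The genes of O-GlcNAc metabolism had no large member difference. Of 18 tested genes of O-GlcNAc cycling and UDP-GlcNAc synthesis 0 reached 1 in either direction, while 4 passed the test as higher and 10 as lower at smaller sizes. Of 18 tested OGT chromatin partners 0 reached 1, while 9 passed as higher and 1 as lower, and of 36 tested SCAN-domain zinc-finger genes, the family of ZNF263, 0 reached 1, while 13 passed as higher and 5 as lower. With a pseudocount of 0.1, 1 O-GlcNAc gene was lower by at least 1, 1 partner gene was higher, and 1 SCAN-domain gene was higher and 2 lower. Of all tested genes 9.08% were higher and 3.31% lower by at least 1, so a list of 18 genes would hold few of them. At any size 33.9% of all genes passed as higher and 29.4% as lower.

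Control gaps of the same sign formed runs along chromosomes. The 13405 tested genes with a RefSeq chromosome (98.9%) were put in order along each chromosome and divided into 211 blocks of at least 60 neighbours, with order taken from GRCh38.p14 since the files name hg19 and no coordinates were used. The median control gap was at least 0.3 in 11 blocks and at most -0.3 in 21, and the median Flag-OGT gap was so in 1 and 3. With at least 100 genes a block, chosen after seeing the data, the counts were 6 and 11 against 0 and 2 of 122.

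The lowest block was the start of chromosome 3, from TRNT1 to GRIP2, with a median control gap of -1.14 and a median Flag-OGT gap of 0.04. Of its 62 genes 57 passed the control-gap test with 97L higher and 1 with 97H higher (38.9% and 26.5% of all genes), and with Flag-OGT 20 and 22 did (36.1% and 33.6% of all genes). The next block of that chromosome, from CCDC174 to ACAA1, had a median control gap of 0.02. EDEM1, which helps to degrade misfolded glycoproteins, was at 6.23 and 6.62 FPKM in the 97H controls, 32.3 and 30.5 FPKM in the 97L controls, 8.98 and 9.12 FPKM in 97H Flag-OGT and 5.72 and 5.93 FPKM in 97L Flag-OGT. The lipid droplet gene CIDEC and the TEAD cofactor gene VGLL4 lie there too, with control gaps of -2.98 and -0.90. So do the tumour suppressor VHL and the nuclear receptor gene PPARG, which were chosen after their values were seen and had control gaps of -1.30 and -1.07 beside Flag-OGT gaps of 0.27 and 0.21. Relative to all genes, the block's control gap lay between -1.18 and -1.04 over the alternatives and its Flag-OGT gap between 0.01 and 0.09.

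Smaller runs also had medians nearer 0 with Flag-OGT than in the controls. The first block of chromosome 2 (FAM110C to FKBP1B) had medians of -0.66 in controls and 0.05 with Flag-OGT, and the last of chromosome 5 (KIAA1191 to TRIM52) had -0.62 and 0.05. The last block of chromosome 17 (CARD14 to METRNL) had -0.56 and -0.10. In the other direction the last block of chromosome 4 (PPID to FRG1) had 0.51 and 0.17, so part of its gap remained. Of its 60 genes 30 passed the Flag-OGT-gap test with 97H higher and 16 with 97L higher (33.6% and 36.1% of all genes).

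Chromosome 10 had a control gap along its whole length. Over its 522 tested genes the median control gap was 0.34, between 0.30 and 0.37 over the 4 pairs of a 97H and a 97L control library, and the median Flag-OGT gap was 0.00, between 0.00 and 0.03 over the 4 pairs. All 8 of its blocks had a median control gap between 0.21 and 0.44. It held 64 genes that were lower by at least 1, 12.3% of its tested genes against 3.31% of all genes, of which 28 were on the control side, 13 on the Flag-OGT side and 23 had opposite gaps. Among them were DNAJC12 and ANKRD1, described above, NRP1, a coreceptor for semaphorins and VEGF (53 and 59.0 FPKM in the 97H controls, 14.3 and 13.7 FPKM in the 97L controls, 3.57 to 3.84 FPKM with Flag-OGT), and COL17A1, a collagen of hemidesmosomes. RBP4 and DDIT4, on the same chromosome, were higher. Not every chromosome followed this pattern. The median gap of chromosome 18 was 0.02 in controls and 0.12 with Flag-OGT. The only block at or above 0.3 with Flag-OGT was the last of chromosome 13 (LMO7 to CHAMP1). Its medians were 0.04 in controls and 0.4 with Flag-OGT. Chromosome 19 had a median line gap of -0.22 in both states and a median difference of -0.08. Single genes there differed as often as elsewhere: 12.6% of its 1024 tested genes reached an absolute difference of at least 1 (97 higher, 32 lower), against 12.4% of all tested genes.

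**Figure D5:**
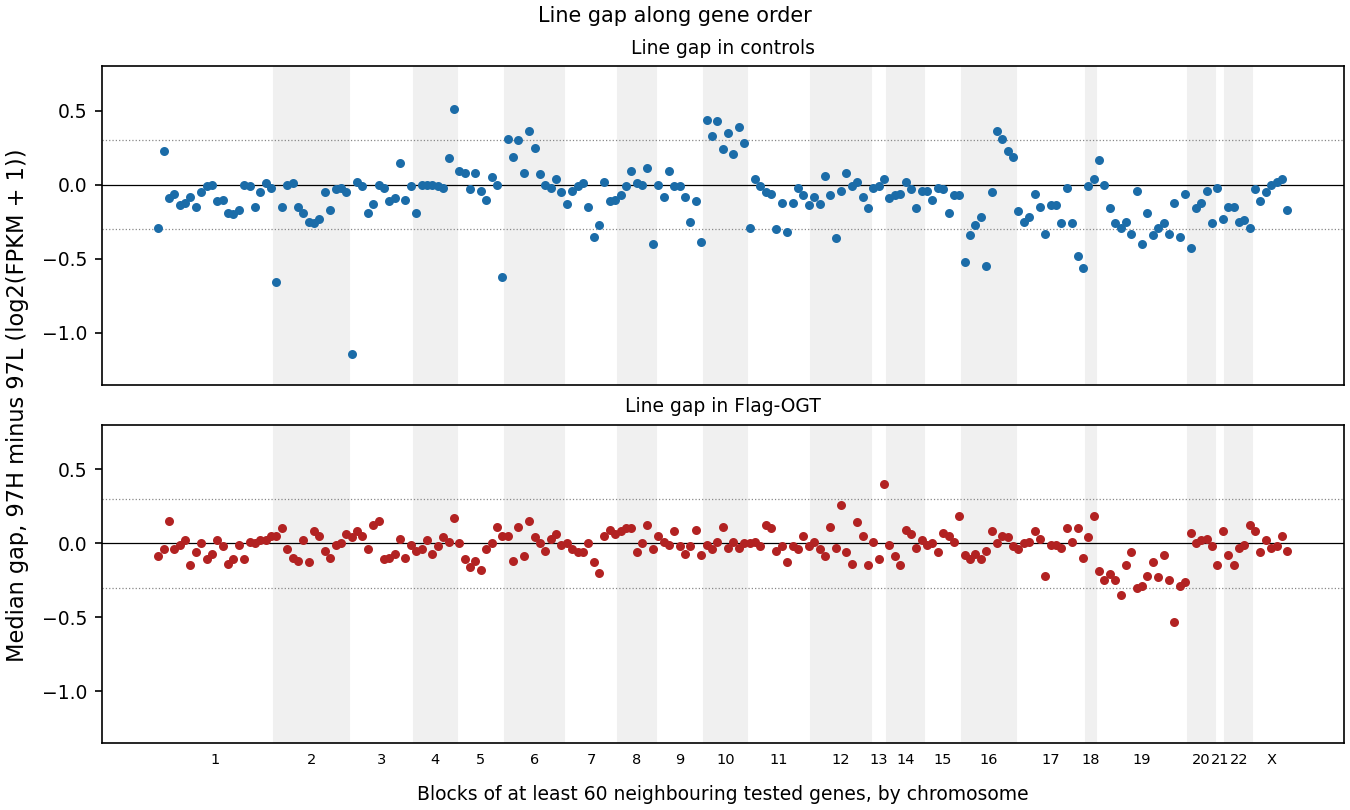
Each point is the median line gap (97H minus 97L, log2(FPKM + 1)) of a block of at least 60 neighbouring tested genes, in chromosome order from 1 to 22 and X, for controls (top) and Flag-OGT (bottom); dotted lines mark 0.3 and -0.3. In controls the first block of chromosome 3 lies at -1.14 and all blocks of chromosome 10 lie above 0.2, and with Flag-OGT the same blocks lie near 0.

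Promoter sequences were counted for the same classes. A GA-rich core of the ZNF263 motif, GGAGGAGG on either strand, stood in 17.6% of the 919 matched genes higher by at least 1, in 9.80% of the 357 lower ones, in 13% of the 10909 matched tested genes (80.5% of those tested) and in 10.4% of all RefSeq promoters. By side it stood in 17.5% of higher and 15.0% of lower control-side genes, in 17.9% and 8.89% of Flag-OGT-side genes and in 17.5% and 2.47% of genes with opposite gaps. Base composition moved with it, since the median GC content of the promoters was 68.0% for higher, 62.3% for lower and 65.3% for all matched tested genes. The part of GC content in these shares was not tested. Of the 32 genes named for the largest differences of each class, 23 had a matched promoter and 1, PHGDH, held this core in it. It is shown with the core in capitals (chr1:119711684-119711983, plus strand, GRCh38.p14).
PHGDH: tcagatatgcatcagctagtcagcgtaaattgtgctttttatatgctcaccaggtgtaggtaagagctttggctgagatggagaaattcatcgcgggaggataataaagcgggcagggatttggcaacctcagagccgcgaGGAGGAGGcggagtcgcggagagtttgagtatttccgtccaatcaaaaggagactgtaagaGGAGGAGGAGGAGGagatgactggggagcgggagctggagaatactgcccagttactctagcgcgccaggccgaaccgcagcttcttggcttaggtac
The core occurs at 2 places in this window, at the second as overlapping copies.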

How the data were processed

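The values are FPKM per gene, deposited by the authors in a single table with 2 decimals. Per the submitters' processing notes, HISAT2 2.1.0, RSEM 1.2.4, DESeq2 1.18.1 and Bowtie2 were used with hg19. The tool that made the FPKM was not given in the sources used here, and read depth is unknown. Per the labels' protocols, total RNA came from Trizol extraction and the cDNA libraries from a SMARTer kit. Left out were 26 features whose names had become dates.

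A model of 4 group means was fitted to log2(FPKM + 1) over the 8 libraries (limma 3.58.1 under R 4.3.3, empirical Bayes with a mean-variance trend, 4 residual degrees of freedom). P-values were Benjamini-Hochberg adjusted over 13553 genes, and genes passed under 0.05. Fold changes of low genes are understated on this scale. Before use, the fit was tested on simulated data for this contrast. Python 3.11.15 was used for tables (pandas 2.3.3, numpy 2.4.6) and figures (matplotlib 3.10.9). Symbols were matched to RefSeq directly or through a unique synonym.

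The contrast, the 54 gene lists and the sides were chosen with earlier results of these data known. Named genes were, per side and direction, the 6 largest differences (4 for opposite gaps) whose libraries of the lines did not overlap on that side, up to 3 per list with a difference of at least 1, and OGT, OGA, ZNF263 and HCFC1. Genes with a number for a name, XIST and Y-linked genes were not named. As alternatives, the pseudocount was set to 0.1, the filter was dropped or raised to 2 FPKM, the libraries were scaled to a common sum, by median ratios or by quantiles, the trend was left out, replicate numbers were entered as a block, libraries were left out in turn, and the bounds of the sides were moved.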

Additional observations from a re-analysis of the deposited data

Results flagged for a closer look

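In 363 genes the difference between lines was at least 1 and the Flag-OGT change passed the test in each line in opposite directions. Of the 162 named genes 33 were of this kind, and the values here are their differences on the log2(FPKM + 1) scale. With opposite gaps, the difference was 5.06 for HTRA3, 4.08 for NKX2-2, 4.05 for SYT17, 3.97 for RAMP1, 3.93 for MMP2, 3.12 for the retinoic acid hydroxylase CYP26B1, 2.23 for the Wnt receptor FZD7, 2.18 for HLA-F, 2.03 for JUND and 1.26 for the histone demethylase KDM6B. It was -2.91 for HIST1H2BK, -1.10 for CDK1 and -1.04 for CDC6, in which 97H fell and 97L rose. On the control side, 97H rose and 97L fell for ADAMTS10 (4.58), TCF7L1 (3.54), FBP1 (2.77), EDEM1 (2.69), ABCG1 (2.63), PCDH1 (2.49), SOX9 (2.42), ATF3 (2.37), IGFBP2 (2.36), IFITM2 (2.20), SEMA3B (1.92) and ALDOC (1.79). The reverse held for DNAJC12 (-3.87), CDH6 (-2.53), DPYSL3 (-2.24), TUBB2A (-2.09) and DSP (-1.54). On the Flag-OGT side, RIPK4 rose in 97H and fell in 97L (4.36), and HSP90AA1 (-1.76) and RPL22 (-1.06) did the opposite. Several of these changes were small in 1 line: FBP1, which encodes a gluconeogenic phosphatase, changed by 0.27 in 97H and -2.50 in 97L.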

How the results depend on the processing

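Of the 12 counts of genes, 199 values under the alternatives lay within 1.5 times the value reported and 14 did not. A pseudocount of 0.1 gave 2780 genes with a difference of at least 1 (1962 higher, 818 lower), 1084 on the control side, 934 on the Flag-OGT side and 748 with opposite gaps. Without a minimum difference these sides held 2781, 3630 and 1482 genes, so that the Flag-OGT side became the larger, and with a ratio of gaps of 1.5 the opposite gaps held 254. With a mean of at least 1 FPKM in both states, chosen after seeing the data, 1054 genes differed by at least 1 (721 higher), 384 on the control side and 328 on the Flag-OGT side. Rescaling to a common sum gave 640 control-side and 700 Flag-OGT-side genes, and quantile normalization 612 and 657, so the order of these sides depends on the scaling. The share of called genes that were higher was 53.6%, 58.8% with a common sum and 45.2% after quantile normalization. The common sum moved the median Flag-OGT gap from -0.02 to 0.11. Leaving out 1 library gave 7476 to 8591 called genes and 1632 to 1810 with a difference of at least 1. A replicate block left 8553 called and 1680 with a difference of at least 1; same-numbered libraries deviated together with r of -0.206 to 0.309 between groups, so the numbers were not taken as pairs. Of the 162 named genes 158 kept their direction and side of the threshold in every alternative in which they were tested. Only 143 were tested with a filter of 2 FPKM and 97 with the filter in both states. KRT7 (adjusted p = 0.0984) and CRYAB (adjusted p = 0.0539) no longer passed with a pseudocount of 0.1, and ZNF263 passed without 97H replicate 2 (0.28, adjusted p = 0.0334). The difference of HCFC1 became 0.05 with a common sum, 0.02 after quantile normalization, and lay between -0.11 and 0.09 with 1 library left out, turning positive without replicate 1 of any group. In 33 named genes the pseudocount moved the difference by over 1.5 times. FPKM were listed to 2 decimals with unknown depth, which limits the low genes most.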

Other observations

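Lists that the text above does not describe also varied in side, and their counts stand against 9.08% of all tested genes higher by at least 1 and 3.31% lower. Of 16 tested protocadherins and cadherins 6 were lower by at least 1 and 3 higher, with 7 of these 9 on the control side. Their median control gap was 0.42 and their median Flag-OGT gap -0.01, and the median difference of -0.70 became 0.30 with a filter of 2 FPKM. CDH6, a cadherin of kidney and neural crest, was at 4.26 and 4.74 FPKM in the 97H controls and at most 0.29 FPKM in the other 6 libraries. Of 44 tested serine, one-carbon and amino acid enzymes 10 were higher and 2 lower, among them PHGDH and ASS1. Of 49 Polycomb and Trithorax genes 4 were higher (8.16%, near the share of all genes) and 0 lower.

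Respiratory chain genes had a line gap but little difference. Of 76 tested subunits 1 was higher by at least 1 and 0 lower, where 9.08% and 3.31% of all tested genes were. The median line gap was -0.42 in controls and -0.51 with Flag-OGT, so the 97L level was the higher of the lines in both states.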
